A study of Homo sapiens with 6 samples.

Results

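The 10 genes described here are noncoding genes whose introns, in most cases, carry small nucleolar RNAs (snoRNAs): *SNHG1*, *SNHG5*, *SNHG6*, *SNHG8*, *SNHG12*, *SNHG15*, *SNHG16*, *GAS5*, *ZFAS1* and *EPB41L4A-AS1*. They were taken by symbol from a table of 58735 genes, and each symbol matched 1 row. A snoRNA host gene is transcribed and spliced like a messenger RNA, and the excised intron is debranched and trimmed to the snoRNA, which guides ribose methylation (box C/D) or pseudouridylation (box H/ACA) of ribosomal RNA. The spliced host RNA usually holds only short reading frames, and several such RNAs, *GAS5* among them, are known targets of nonsense-mediated decay during translation. Many host genes also begin with a C followed by pyrimidines, the 5′ terminal oligopyrimidine (5′ TOP) tract known from ribosomal protein mRNAs, whose translation responds to mTOR.

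The study asked how raised *RRM2*, a subunit of ribonucleotide reductase, changes the transcriptome of thyroid carcinoma cells. TPC-1 cells are an established line from a human papillary thyroid carcinoma. The 3 control libraries came from wild strain TPC-1 and the other 3 libraries from *RRM2*-OE-TPC-1, the same line infected with a lentivirus that carries *RRM2* behind a CMV promoter and selected with puromycin. The selected cells were not described as a clone. No empty vector library was analysed here, so infection and selection cannot be told apart from *RRM2*. The genotype label of *RRM2*-OE-TPC-1 replicates 2 and 3 reads RRM3 and RRM4, whereas their titles give *RRM2*.

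Before the host genes were compared, *RRM2* and the cell markers were examined. *RRM2* was at 9.17, 9.05 and 8.52 FPKM (fragments per kilobase of gene, with the authors' scaling between libraries) in TPC-1. In *RRM2*-OE-TPC-1 it was at 50.4, 47.5 and 47.15 FPKM, so that the labels and the targeted gene gave the same order. Depth was 14317091 to 17084067 reads on genes per library, with medians of 16034194 and 15979186 in the 2 groups. Among thyroid lineage markers, *PAX8* (69.3 and 58.5 FPKM) and *FOXE1* were present, *NKX2-1* was listed at 0 in all 6 libraries, and *TG*, *TSHR* and *SLC5A5* stayed at or below 0.113 FPKM. The summed level of 5 leukocyte markers was at most 0.162 FPKM in any library. *PECAM1*, an endothelial marker, had means of 0.924 and 0.0588 FPKM, *KRT18*, an epithelial keratin, of 41.2 and 85.2 FPKM. The summed level of 5 epithelial markers was 42.8 to 47.1 FPKM in TPC-1 and 88.3 to 90.7 FPKM in *RRM2*-OE-TPC-1, and most of it was *KRT18*. *KRT7* had means of 1.18 and 1.01 FPKM (limma adjusted p = 0.169), and *KRT19* and *EPCAM* stayed at or below 0.125 FPKM. The summed level of 3 endothelial markers was 0.873 to 1.05 and 0.0667 to 0.115 FPKM, and that of 5 fibroblast markers was 0.844 to 0.977 and 0.430 to 0.583 FPKM. The part of these marker differences in the results was not tested.

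The first 40 bases of GENCODE 29 transcripts on GRCh38 are given here to compare how these RNAs begin, 5′ to 3′ on the gene's strand, with a C and at least 4 following pyrimidines in capitals. For *SNHG5*, *SNHG8*, *SNHG12*, *SNHG16*, *GAS5* and *ZFAS1* the start shown is, among starts with such a tract, the one with the most transcripts. In that order it holds 3 of 23, 1 of 5, 2 of 17, 2 of 8, 6 of 29 and 2 of 10 annotated transcripts. The positions are chr6:85678733, chr4:118278758, chr1:28581873, chr17:76557769, chr1:173867989 and chr20:49278642. For *SNHG1* (chr11:62855885) and *EPB41L4A-AS1* (chr5:112160526) the start shown is the RefSeq start.
SNHG5: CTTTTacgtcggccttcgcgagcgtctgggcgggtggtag
SNHG8: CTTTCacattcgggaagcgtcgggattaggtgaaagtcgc
SNHG12: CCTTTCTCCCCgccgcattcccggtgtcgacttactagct
SNHG16: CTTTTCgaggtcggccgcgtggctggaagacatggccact
GAS5: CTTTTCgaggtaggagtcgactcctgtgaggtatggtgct
ZFAS1: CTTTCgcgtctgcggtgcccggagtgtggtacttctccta
SNHG1: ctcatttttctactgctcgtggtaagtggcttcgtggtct
EPB41L4A-AS1: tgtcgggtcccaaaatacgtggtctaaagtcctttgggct

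Of the 10 host genes, 8 had at least 1 transcript that opened with the tract, including *SNHG6* and, 406 bases inside its RefSeq start, a single transcript of *SNHG1*. *SNHG15* and *EPB41L4A-AS1* had none. Among the starts printed here, *SNHG12* had the longest tract, 11 bases, and *SNHG16* and *GAS5* shared the tract CTTTTC. The printed start of *GAS5* lies 1056 bases from its RefSeq start, those of *SNHG8* and *SNHG16* 4 and 5 bases from theirs, and the others at theirs. Counted over genes, 16.1% of tested genes, 7.34% of tested long noncoding genes and 42.9% of 14 other noncoding snoRNA hosts had such a start. Counted over transcripts, 23 of the 136 transcripts of these genes (16.9%) opened with the tract, beside 3034 of 114763 transcripts of the tested genes (2.64%). For the 81 tested genes with an RPL or RPS ribosomal protein symbol the share was 20.3% of transcripts. The 10 genes were chosen as snoRNA host and 5′ TOP noncoding genes, so their share is no independent result. An annotated start is not a measured one, since the deposited values hold 1 number per gene.

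RefSeq promoter windows (GRCh38.p14, 250 bases before the start to 50 after) were found for 8 of the 10 genes and not for *SNHG6* and *SNHG15*. The letters TATAA on the gene's strand, 45 to 15 bases before the start, were in 4 of those 8 windows and in 4.09% of 35116 windows of all genes. The longer TATATAA, which contains TATAA, was in 3 of them and in 0.618% of all windows. They are shown from 50 bases before the start through 10 bases from it, with the match in capitals, because the genes that hold it include the one with the largest rise (*SNHG12*) and 2 that fell. The windows lie at chr1:28581864-28581923 on the minus strand, chr6:85678724-85678783 on the minus strand, chr20:49278592-49278651 on the plus strand and chr4:118278712-118278771 on the plus strand.
SNHG12: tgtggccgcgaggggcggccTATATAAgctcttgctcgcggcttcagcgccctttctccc
SNHG5: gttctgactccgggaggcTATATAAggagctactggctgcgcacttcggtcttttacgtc
ZFAS1: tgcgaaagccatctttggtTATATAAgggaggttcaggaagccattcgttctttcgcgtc
SNHG8: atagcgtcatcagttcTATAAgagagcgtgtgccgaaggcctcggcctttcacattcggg

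The E-box CACGTG, searched over the whole window (it reads the same on both strands), was in none of the 8 windows and in 7.26% of all. Of the 3 genes with TATATAA, *SNHG12* rose, *SNHG5* fell and *ZFAS1* did not pass the test.

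The host genes did not move as a block. *SNHG12* rose to 2.25 times its TPC-1 mean, while the mean of *EPB41L4A-AS1* fell by 45.7%, that of *SNHG8* fell by 37.6%, that of *SNHG5* fell by 33.2% and that of *GAS5* fell by 26.2%. *SNHG1* fell by 8.40% and *SNHG16* rose by 10.4%, both with calls that depended on single libraries. *SNHG6* and *ZFAS1* did not pass the test, and *SNHG15* was too low to be tested.

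Each gene was tested with limma on log2(FPKM + 0.1) across 13621 genes, with Benjamini-Hochberg adjustment, and an adjusted p of 0.05 or less was taken as passing. Among the 9 host genes tested, 2 passed as higher and 5 as lower after *RRM2* overexpression. Of the genes tested, 67.6% passed, 34.9% as higher and 32.7% as lower, so 7 of 9 is near the background. With an absolute log2 fold change of at least 1 required besides, *SNHG12* alone of the 9 passed, where 11.5% of all genes did (4.48% higher, 6.97% lower). The same 7 genes had no overlap between the libraries of the groups, 2 higher and 5 lower, and for 72.2% of all tested genes (37.3% higher, 35% lower). With library totals in place of the authors' scaling, *SNHG16* lost its call and *SNHG6* gained one, giving 1 higher and 6 lower. Under that scaling 9236 of the 13621 tested genes passed, 4259 as higher and 4977 as lower.

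The median log2 fold change of the 9 genes was -0.15, and -0.30 without *SNHG12*. The median was 0.011 over all tested genes and -0.22 over 1295 tested long noncoding genes, of which 16.4% passed as higher and 36.0% as lower. Thus the median of the 9 host genes lay between those of the 2 backgrounds. Without *SNHG12* it lay below both. *SNHG12* had the highest value of the 9, so leaving it out can only lower the median or keep it. Nothing is concluded from that position. Neither background was like the host genes in level. The median of mean FPKM was 22.7 for the 9 host genes, 5.5 for all tested genes and 1.31 for the long noncoding genes. Without TPC-1 replicate 2 the median log2 fold change of the 9 host genes was -0.22: this library was the lowest of its group for 7 of them.

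**Figure D1:**
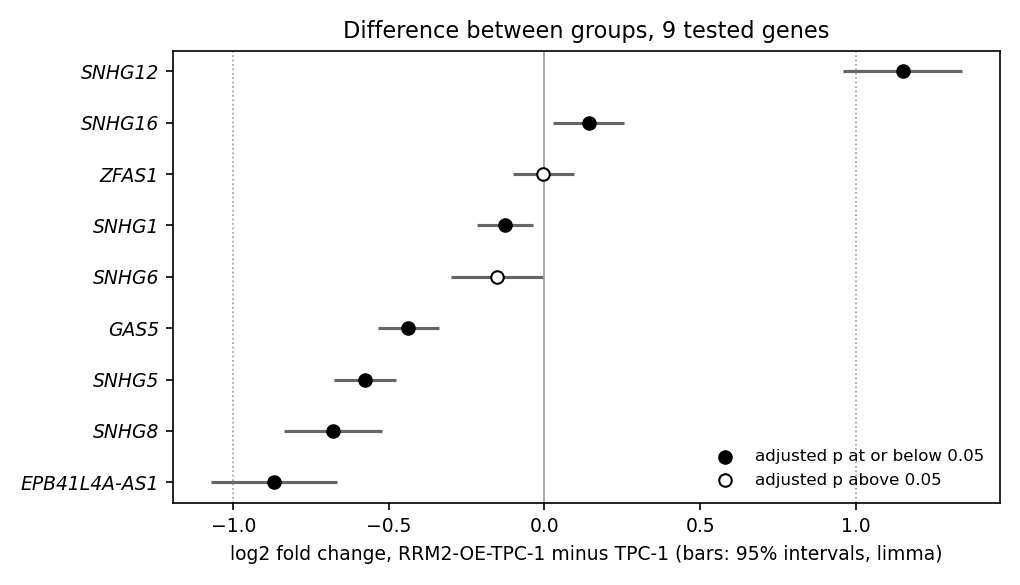
Log2 fold change (x axis, *RRM2*-OE-TPC-1 minus TPC-1, from limma on log2(FPKM + 0.1)) of the 9 tested host genes, with 95% intervals as bars, filled points for an adjusted p at or below 0.05 and dotted lines at -1 and 1. *SNHG12* at 1.15 is the only point past a dotted line, and *EPB41L4A-AS1* at -0.87 is the lowest.

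In TPC-1 the levels spanned from *GAS5* at 74.9 ± 3.37 FPKM (SD, n = 3) to *SNHG12* at 3.03 ± 0.327 FPKM, with *SNHG15* near 0. *GAS5*, *SNHG6* (71.3 ± 5.51 FPKM) and *SNHG8* (64.0 ± 3.97 FPKM) formed the top, where the libraries of neighbours in the order overlapped. Below them the order was *ZFAS1*, *SNHG1*, *SNHG5*, *SNHG16*, *EPB41L4A-AS1* and *SNHG12*, with no overlap between neighbours.

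In *RRM2*-OE-TPC-1 no neighbours overlapped above *SNHG15*. *SNHG6* (64.1 ± 3.83 FPKM) was now above *GAS5* (55.3 ± 1.60 FPKM), *SNHG16* above *SNHG5*, and *SNHG12* above *EPB41L4A-AS1*. FPKM is per kilobase of the union of all annotated exons. In *GAS5*, where 19 of 29 annotated transcripts retain an intron, that union is 3631 bases, and 1614 bases without them. In *SNHG12* 10 of 17 retain an intron, and the lengths are 4266 and 2546 bases. Levels between genes depend on this length, and the ratio of a gene's FPKM between libraries does not. The log2 fold changes depend on it through the added 0.1, most at low levels. Whether intron retention differed between the groups was not tested.

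The summed level of the 10 genes was 314.3, 289.6 and 310.9 FPKM in the TPC-1 libraries and 247.5, 243.8 and 251.7 FPKM in the *RRM2*-OE-TPC-1 libraries. The sums of the groups did not overlap. Of all reads on genes they took fewer in *RRM2*-OE-TPC-1, 6.15 ± 0.0287 per 10000 (SD, n = 3), than in TPC-1, 7.61 ± 0.261 per 10000. In such bulk libraries, fewer cells of a type and less RNA per cell cannot be told apart.

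**Figure D2:**
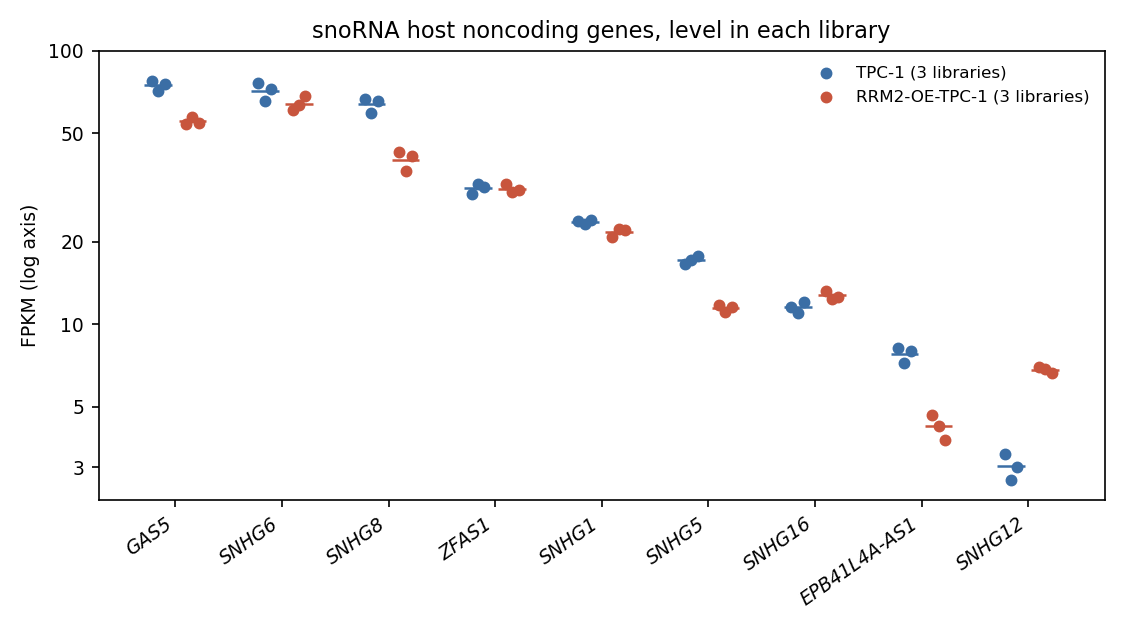
FPKM on a log axis (y) of the 9 host genes above 1 FPKM, ordered by their TPC-1 mean (x). Blue points are the 3 TPC-1 libraries, red points the 3 *RRM2*-OE-TPC-1 libraries, and short bars the group means. The colours are apart and red is lower for *GAS5*, *SNHG8*, *SNHG5* and *EPB41L4A-AS1*, red is higher for *SNHG12*, and they overlap for *SNHG6* and *ZFAS1*.

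*SNHG12* lies at chr1:28578538-28583132 on the minus strand and is host to both snoRNA classes, with the box H/ACA snoRNAs *SNORA61*, *SNORA44* and *SNORA16A* and the box C/D snoRNA *SNORD99*. It was at 3.36, 2.70 and 3.02 FPKM in TPC-1 and at 6.96, 6.86 and 6.64 FPKM in *RRM2*-OE-TPC-1, from 194 to 501 reads a library. All *RRM2*-OE-TPC-1 libraries lay above all TPC-1 libraries. The log2 fold change was 1.15 (SE 0.0828, 95% interval 0.96 to 1.34, limma adjusted p = 7.5e-06), and 419 of the tested genes (3.08%) had a higher one. With a pseudocount of 1 it was 0.96, which does not reach 1.

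Set against *GAS5* in the same library, *SNHG12* was at 4.32, 3.80 and 3.98 FPKM per 100 FPKM of *GAS5* in TPC-1, and at 12.8, 12.01 and 12.2 in *RRM2*-OE-TPC-1. This ratio needs no scaling between libraries, and its groups did not overlap. Because the mean of *GAS5* itself fell by 26.2%, the ratio rose by more than *SNHG12* did.

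Besides *SNHG12*, the genes that host box C/D snoRNAs in this set are *GAS5*, *SNHG1*, *SNHG5*, *SNHG6*, *SNHG16* and *ZFAS1*. *GAS5* (growth arrest specific 5, chr1:173863900-173868882, minus strand) is known to accumulate in growth-arrested cells and to bind the glucocorticoid receptor. It was at 77.7, 71.2 and 75.8 FPKM in TPC-1 and at 54.2, 57.1 and 54.5 FPKM in *RRM2*-OE-TPC-1, from 2845 to 4708 reads a library, the most of any host gene here. The lowest TPC-1 library was above the highest *RRM2*-OE-TPC-1 library, and *GAS5* fell by 0.44 on the log2 scale (SE 0.0420, limma adjusted p = 3.7e-05).

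*SNHG5* (chr6:85660950-85678748, minus strand), with *SNORD50B* in its span, was at 16.6, 17.1 and 17.8 FPKM in TPC-1 and at 11.7, 11.1 and 11.6 FPKM in *RRM2*-OE-TPC-1. The groups did not overlap. It fell by 0.58 on the log2 scale (SE 0.0433, limma adjusted p = 9.5e-06), and it stood below *SNHG16* in *RRM2*-OE-TPC-1 where it stood above it in TPC-1.

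*SNHG1* (chr11:62851988-62855914, minus strand), with 7 annotated snoRNA genes in its span, was at 23.8, 23.2 and 24.1 FPKM in TPC-1 and at 20.8, 22.3 and 22.1 FPKM in *RRM2*-OE-TPC-1. The groups did not overlap, but their nearest libraries were close, at 23.2 and 22.3 FPKM. It fell by 0.13 on the log2 scale (SE 0.0392, limma adjusted p = 0.0202). The call was lost without any of 3 libraries: leaving out TPC-1 replicate 1 gave a limma adjusted p of 0.0508, leaving out TPC-1 replicate 3 gave 0.0688 and leaving out *RRM2*-OE-TPC-1 replicate 1 gave 0.0571.

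*SNHG16* (chr17:76557766-76565348, plus strand), host of *SNORD1A*, *SNORD1B* and *SNORD1C*, was at 11.6, 11.02 and 12.03 FPKM in TPC-1 and at 13.3, 12.4 and 12.6 FPKM in *RRM2*-OE-TPC-1. The groups did not overlap, and the log2 fold change was 0.14 (SE 0.0489, limma adjusted p = 0.0316). The call was lost under 7 of 14 alternatives. The 14 include median-of-ratios factors, which nearly repeat the authors' scaling. The limma adjusted p was 0.0641 with no filter on low values, 0.175 with library totals and 0.167 with voom. Leaving out TPC-1 replicate 1 gave 0.0627, leaving out TPC-1 replicate 2 gave 0.0951, leaving out *RRM2*-OE-TPC-1 replicate 1 gave 0.0957 and leaving out *RRM2*-OE-TPC-1 replicate 3 gave 0.0645.

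*SNHG6* (chr8:66921684-66926398, minus strand), host of *SNORD87*, was at 76.1, 65.3 and 72.6 FPKM in TPC-1 and at 60.8, 63.2 and 68.3 FPKM in *RRM2*-OE-TPC-1. TPC-1 replicate 2 lay inside the range of the other group. The log2 fold change was -0.15 (SE 0.0643, 95% interval -0.30 to -0.0042) and missed the threshold (limma adjusted p = 0.0648). It passed under 4 alternatives: leaving out TPC-1 replicate 2 gave a limma adjusted p of 0.0118, leaving out *RRM2*-OE-TPC-1 replicate 3 gave 0.0334, library totals gave 0.0136 and voom gave 0.0015.

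*ZFAS1* (chr20:49278178-49295738, plus strand), which starts head to head with *ZNFX1* and hosts *SNORD12*, *SNORD12B* and *SNORD12C*, was at 30.1, 32.5 and 31.8 FPKM in TPC-1 and at 32.5, 30.4 and 31.1 FPKM in *RRM2*-OE-TPC-1. The groups overlapped almost entirely. The log2 fold change was -0.0042 (SE 0.0424, limma adjusted p = 0.934), with a 95% interval of -0.10 to 0.094.

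Besides *SNHG12*, the hosts of a box H/ACA snoRNA are *SNHG8* (*SNORA24*), *EPB41L4A-AS1* (*SNORA13*) and *SNHG15* (*SNORA9*). *SNHG8* (chr4:118278709-118279823, plus strand) was at 66.8, 59.5 and 65.7 FPKM in TPC-1 and at 42.5, 36.2 and 41.1 FPKM in *RRM2*-OE-TPC-1. The lowest TPC-1 library was above the highest *RRM2*-OE-TPC-1 library, and the gap in FPKM between them was the widest of the 9 tested host genes. It fell by 0.68 on the log2 scale (SE 0.0681, limma adjusted p = 4.8e-05).

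*EPB41L4A-AS1* (chr5:112160526-112164276, plus strand) was at 8.21, 7.22 and 7.98 FPKM in TPC-1 and at 4.68, 4.26 and 3.77 FPKM in *RRM2*-OE-TPC-1, from 201 to 458 reads a library. The groups did not overlap, and it fell by 0.87 on the log2 scale (SE 0.0877, 95% interval -1.07 to -0.67, limma adjusted p = 5.0e-05). Of its exon bases 1659, or 49.6%, are also exons of *EPB41L4A* on the other strand, and that gene had 1 to 4 reads a library. The methods describe directional libraries. Whether strand was used in counting is not given in the sources used here, so reads of an overlapping pair may not be told apart.

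*SNHG15* (chr7:44983023-44986961, minus strand) had 3, 0 and 0 reads in TPC-1 and 3, 2 and 2 reads in *RRM2*-OE-TPC-1. All are at or below the 3 reads that a count of 0 allows, which at this length correspond to 0.0480 to 0.0569 FPKM. No fold change is given, and no difference was detectable at this depth. The other 9 host genes had at least 194 reads in every library.

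Several host genes share a start region or exons with a gene on the other strand. *SLC3A2*, the heavy chain of amino acid transporters, starts 188 bases from *SNHG1* and had a log2 fold change of -0.13 (SE 0.0573, limma adjusted p = 0.0717), beside -0.13 for *SNHG1*. *ZBTB37* starts 91 bases from *GAS5* and fell by 0.34 on the log2 scale (SE 0.104, limma adjusted p = 0.0200), beside a fall of 0.44 in *GAS5*. In these 2 pairs both values had the same sign. *GAS5-AS1*, which shares 42 exon bases with *GAS5*, had 6 to 20 reads a library and did not pass (0.64, SE 0.321, limma adjusted p = 0.111).

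*ZNFX1*, a helicase gene that starts 155 bases from *ZFAS1* and shares 249 exon bases with it, rose by 0.41 (log2, SE 0.0366, limma adjusted p = 2.4e-05), where *ZFAS1* was at -0.0042. Their 95% intervals, 0.33 to 0.50 and -0.10 to 0.094, did not overlap. *TRNAU1AP*, whose exons overlap *SNHG12* by 8 bases at the far end, was at -0.048 (SE 0.0847, limma adjusted p = 0.631). *MCMDC2* (365 bases shared with *SNHG6*), *AC015802.4* (83 bases from the start of *SNHG16*) and *AC015802.6* (1639 bases shared with *SNHG16*) had at most 12 reads a library.

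**Figure D3:**
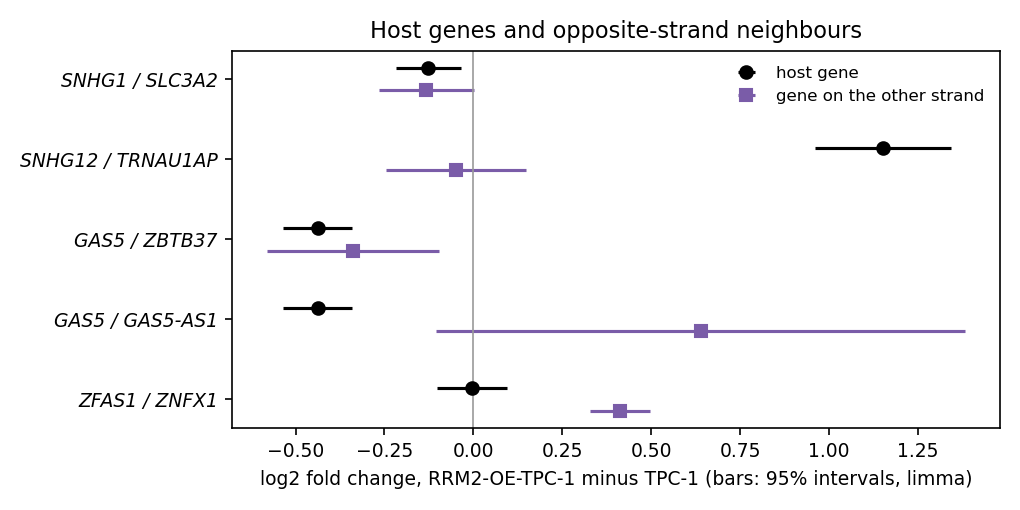
Log2 fold change (x axis, *RRM2*-OE-TPC-1 minus TPC-1) of a host gene (black circles) and of a tested gene on the other strand that shares its start region or exons (purple squares), 1 pair a row, with 95% intervals from limma. The members of the *SNHG1* and *GAS5*/*ZBTB37* pairs lie together, those of the *SNHG12* and *ZFAS1* pairs lie apart, and the interval of *GAS5-AS1* is the widest.

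The snoRNAs themselves could not be followed. The annotation places 23 snoRNA genes inside the spans of these hosts on the same strand, and none inside that of *GAS5*, whose known snoRNAs are not listed there. Of the 23, 17 lie wholly inside an exon of the host in some annotated transcript, and each of the 17 had 0 reads in all 6 libraries. Over the whole table, 147 snoRNA genes lie wholly inside an exon of a gene on their strand and 0 of them had a read, beside 189 of 425 (44.5%) in an intron. A 0 of such a snoRNA gene is therefore no measure of its RNA.

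Of the other 6, 5 had reads in at least 1 library. *SNORD12B* had 8, 15 and 4 reads in TPC-1 and 9, 21 and 9 reads in *RRM2*-OE-TPC-1. *SNORD99*, in an intron of *SNHG12*, had 2, 0 and 2 reads and then 10, 5 and 1 reads. *SNORD1B* had 0, 11 and 7 reads and then 8, 3 and 7 reads. The groups overlapped in each case. *SNORD12C* had 2 to 11 reads and *SNORA13* 1 to 5 reads a library, and none of the 5 reached the minimum for the test.

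The other noncoding snoRNA host genes moved in both directions as well. Of 14 tested, 5 rose and 4 fell, with a median log2 fold change of 0.056. *LRRC75A-AS1* (now *SNHG29*) fell by 0.35 on the log2 scale, from 51.1 ± 2.65 to 40.2 ± 1.78 FPKM (SD, n = 3), and *C6orf48* (now *SNHG32*) by 0.85, from 28.8 ± 1.59 to 15.9 ± 0.919 FPKM. *DANCR*, which is known to hold differentiation back, rose by 0.64, from 11.1 ± 0.594 to 17.5 ± 1.53 FPKM.

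Of 51 protein-coding snoRNA hosts, mostly genes of ribosomal proteins and translation factors, 19 rose (37.3%) and 10 fell (19.6%), with a median of 0.060. The translation elongation factor *EEF2* fell by 0.25 on the log2 scale from 881.6 ± 22.2 FPKM, and the ribosomal protein gene *RPL3* by 0.54 from 492.8 ± 12.03 FPKM. *RPS2*, also of the ribosome, was at 0.072 (limma adjusted p = 0.286). *HSPA8*, the constitutive HSP70 chaperone and host of *SNORD14* genes, had the largest rise of the list, 1.55, from 140.1 ± 1.58 to 411.4 ± 6.04 FPKM.

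Of 25 mRNAs with a known 5′ TOP tract other than those of ribosomal proteins, 10 rose and 7 fell, with a median of -0.012. *EEF1A1*, the most abundant of them at 1775 ± 23.2 FPKM in TPC-1, fell by 0.23 on the log2 scale (limma adjusted p = 0.0048) and *EIF4B*, an initiation factor, by 0.66. *NPM1*, a nucleolar chaperone, rose by 0.61. The medians of these 3 lists stand beside 0.011 over all tested genes.

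Of 20 regulators of TOP mRNA translation, mTOR complex members and TOP-binding proteins, 9 rose and 8 fell, with a median of -0.079. *DEPTOR*, an inhibitor within mTOR complexes, fell by 1.12 on the log2 scale, from 16.6 ± 1.22 to 7.58 ± 0.279 FPKM (limma adjusted p = 1.8e-06), and *LARP4* rose by 0.58. *PABPC1* (-0.10, limma adjusted p = 0.0519) and *CNBP* (-0.054, limma adjusted p = 0.260) did not pass.

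In the lists of factors that make snoRNAs and degrade host RNAs, more genes passed as higher than as lower. Of 20 genes of snoRNP proteins and their assembly, 16 rose (80.0%) and 1 fell, with a median of 0.37. *NOLC1*, a nucleolar snoRNP chaperone, rose by 0.72 from 42.4 ± 1.61 to 69.7 ± 1.34 FPKM, *NOP10*, a box H/ACA core protein, by 0.62, and *DKC1*, the pseudouridine synthase, by 0.18, while *PIH1D1* fell by 0.35. These shares stand beside 34.9% higher and 32.7% lower over all tested genes, and no test of the lists was made.

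Of 18 genes of intron debranching, the exosome and exonucleases, 14 rose (77.8%) and 0 fell, with a median of 0.29. The exonuclease *XRN2* rose by 0.26 from 44.4 ± 0.838 FPKM and the exosome subunits *EXOSC4* and *EXOSC9* by 0.38 and 0.73. *EXOSC6* was at -0.17 (limma adjusted p = 0.0706). Of 24 nonsense-mediated decay factors, 14 rose and 3 fell, with a median of 0.21. *EIF4A3* of the exon junction complex rose by 0.62 and the release factor *ETF1* by 0.36, *DCP1A* of the decapping complex fell by 0.37, and *PNRC2* did not pass (0.065, limma adjusted p = 0.184).

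Of 18 tested long noncoding RNAs of another list, chosen as hosting no snoRNA, 5 rose and 8 fell, with a median of -0.097. The annotation places 1 small RNA gene of snoRNA type inside 1 of them, *MIR31HG*. *NORAD*, which binds Pumilio proteins, fell by 0.15 on the log2 scale from 58.6 ± 0.620 FPKM, and *MALAT1*, of nuclear speckles, by 0.64 from 45.1 ± 2.41 FPKM. *PURPL*, a p53-regulated RNA, rose by 3.34 on the log2(FPKM + 0.1) scale, which understates changes of low genes, from 0.122 ± 0.115 to 1.96 ± 0.127 FPKM, and *MIR31HG* fell by 1.50. The values of these 18 ran from -1.50 to 3.34, beside -0.87 to 1.15 for the 9 host genes. The ends of the first range were genes at low levels, *PURPL* in TPC-1 and *MIR31HG* in *RRM2*-OE-TPC-1 (mean 0.611 FPKM). Without *PURPL* and *MIR31HG* the values ran from -0.95 (*NEAT1*) to 0.89 (*MIR22HG*). The upper end then lay below that of the host genes, so no order of the ranges is given.

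**Figure D4:**
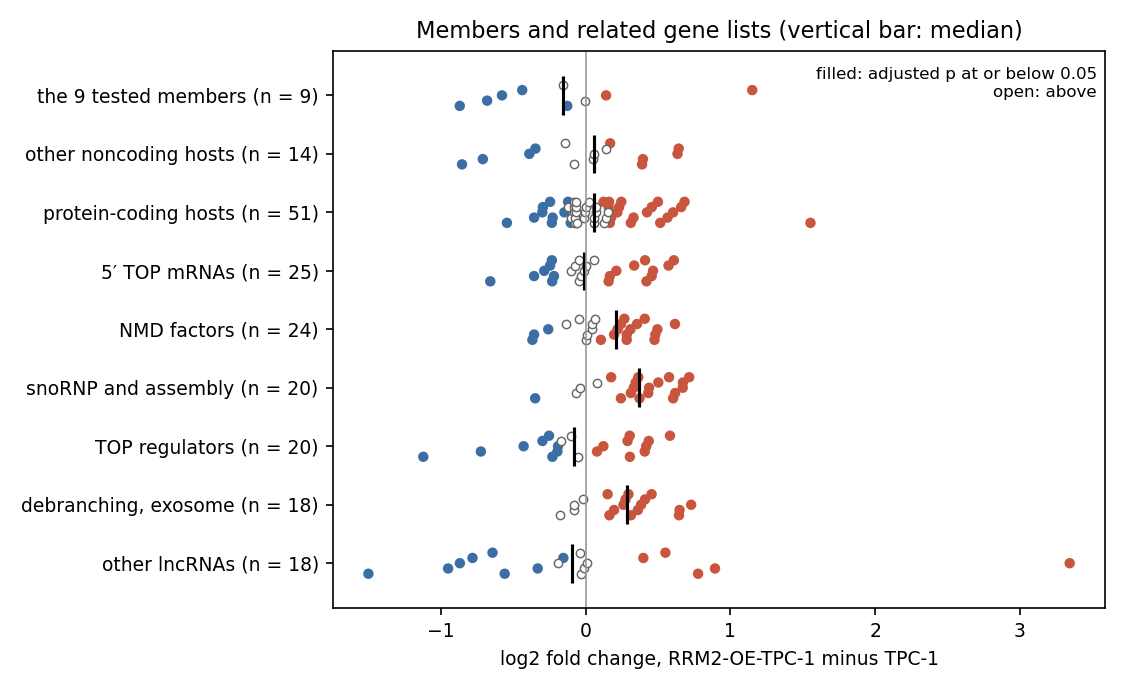
Log2 fold change (x axis, *RRM2*-OE-TPC-1 minus TPC-1) of every tested gene of the 9 host genes and of the 8 lists (y axis, number tested in brackets). Points are genes, red where higher and blue where lower where the adjusted p was at most 0.05, open otherwise, offset vertically only to separate them, and black bars are medians. The medians run from -0.15 for the 9 host genes to 0.37 for the snoRNP list.

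The profile of the 9 host genes, as the mean of their log2 values centred over the 6 libraries, was 0.12, 0.018 and 0.12 in TPC-1 and -0.059, -0.11 and -0.093 in *RRM2*-OE-TPC-1. Among 4441 other genes with a mean of at least 10 FPKM, those nearest to it by Euclidean distance over the 6 libraries were *MAF1* (0.0259), *FAM189B* (0.0416), *TIMP2* (0.0416), *OGFR* (0.0500) and *CTSZ* (0.0507). *MAF1*, a repressor of RNA polymerase III, had means of 77.7 ± 3.26 and 69.0 ± 1.82 FPKM (SD, n = 3). The mean profile stands for no single host gene, since it averages genes that rose, fell and did not pass the test.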

How the data were processed

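RNA of 3 TPC-1 and 3 *RRM2*-OE-TPC-1 libraries, which the submitters call biological replicates, was sequenced. The methods describe poly(A) selection, whereas the labels describe rRNA removal and RNase R digestion. After trimming with fastp, alignment and counting per gene, the authors deposited FPKM. The submitters' processing notes name HISAT2 2.0.5, featureCounts 1.5.0, DESeq2 1.20.0 and GRCh38.p14. The methods also describe directional libraries, but strand use in counting is not given in the sources used here. GENCODE 29 held all 58735 gene identifiers, at the same positions. FPKM times length gave whole reads (within 0.01) for 100% of values, and so the depth behind the FPKM. Divided by median-of-ratios factors and by its mean, that depth was 0.999 to 1.001 in the libraries, so the authors' scaling followed those factors. Relative to reads on genes it was 1.03 to 1.05 in TPC-1 and 0.997 to 1.01 in *RRM2*-OE-TPC-1.

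Here log2(FPKM + 0.1) was tested with limma 3.58.1 in R 4.3.3 (lmFit, eBayes with trend), for genes with at least 0.5 FPKM and 10 reads in 3 libraries. The test was run on simulated data with 200 changed genes. It recovered 90.8% of those changed 1.5-fold, 93.8% of those changed 2-fold and 100% of those changed 4-fold, with 16 false calls. Far fewer genes changed there than passed here, so the simulation does not give the error rate of these data. Intervals are limma's 95% intervals. The floor of 3 reads covers counting error only. An exact permutation test of 3 against 3 libraries cannot go below 0.1 and was not used. Tables and figures used Python 3.11.15, pandas 2.3.3 and matplotlib 3.10.9. The alternatives were no filter, the FPKM minimum alone, pseudocounts of 1 and 0.01, library totals, median-of-ratios factors, voom on recovered reads, the replicate number as a block, and each library left out.

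The members and lists were chosen with earlier results of these data known. Named are all members, snoRNA genes in their spans with reads, genes on the other strand that share exons or start within 2000 bases, per list the 2 most abundant genes and the largest rise and fall above 1 FPKM, and the 5 genes nearest to the members' mean profile. Of 21 symbols of other noncoding hosts, 18 were matched, and *LINC-PINT* matched 2 rows. Some genes that these rules cover are not reported here.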

Additional observations from a re-analysis of the deposited data

How the results depend on the processing

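Directions and calls of *SNHG5*, *SNHG8*, *SNHG12*, *GAS5* and *EPB41L4A-AS1* held under all 14 alternatives. The log2 fold changes ran from 0.96 to 1.23 for *SNHG12* and from -0.94 to -0.75 for *EPB41L4A-AS1*. Of the 14, median-of-ratios factors nearly repeat the authors' scaling (1.1511 beside 1.1509 for *SNHG12*), so that setting is no separate check. With a pseudocount of 1, 0 of the host genes and 716 genes in place of 1560 passed both the adjusted p and the fold threshold, since a larger pseudocount shrinks fold changes. With each library left out in turn, 5 to 7 host genes passed the adjusted p, as 8555 to 8772 of the 13621 tested genes did, and the host genes' median log2 fold change ran from -0.22 (without TPC-1 replicate 2) to -0.12. The value of *ZFAS1* then ran from -0.036 to 0.019 and never passed; its sign reversed without TPC-1 replicate 2 (0.019), TPC-1 replicate 3 (0.0038), *RRM2*-OE-TPC-1 replicate 2 (0.017) and *RRM2*-OE-TPC-1 replicate 3 (0.0016), and the cause was not tested. Same-numbered libraries did not deviate together (correlations of -0.055 to -0.0060). No pairing was thus detected, which does not show that none existed. With the replicate block 7 host genes and 8934 genes passed the adjusted p, in place of 7 and 9207. Library totals moved the median of all genes to -0.045. *SNHG15* and the snoRNA genes that had reads had too few for the test. The parts of depth and of library preparation in this were not tested.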
